A study of Homo sapiens with 32 samples.

Results

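The replication machinery was followed here through 43 protein-coding genes that encode proteins needed to license, unwind, prime, copy and seal DNA, 3 of them for enzymes of deoxynucleotide synthesis. The members were taken by symbol from the deposited count tables and are 43 of 19815 protein-coding genes and of 60554 annotated genes. All 43 passed the filter on low counts in both cell lines. RNA-Seq was run on 32 libraries, made either from total mRNA (T) or from mRNA of the polysomal part of sucrose gradients (P). The cell lines were MCF10A, an immortalised non-tumorigenic mammary epithelial line, and MDA-MB-231, a triple-negative breast carcinoma line. Cells were kept in normoxia (N), in hypoxia at 0.5% O2 for 24 hours (H), in normoxia with PP242 at 2.5 µM for 3 hours (NPP), or in hypoxia with PP242 (HPP), and cells without PP242 received the DMSO vehicle. PP242 is an ATP-competitive inhibitor of the mTOR kinase, and each of the 16 groups of line, condition and fraction held 2 libraries labelled as biological replicates. T and P libraries whose titles carry the same number were taken as made from 1 culture. Library totals ran from 18340916 to 46032327 counts.

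Replication starts when the origin recognition complex, CDC6 and CDT1 load the MCM2 to MCM7 ring on DNA in G1. CDC45 and the GINS complex then turn the ring into an active helicase, and MCM10 takes part in that step. DNA polymerase alpha with primase starts each strand, the clamp PCNA and its loader RFC hold the replicative polymerases delta and epsilon on the template, and FEN1 with LIG1 joins the lagging strand. Many of these genes are classical targets of E2F transcription factors, so their mRNAs are highest in proliferating cells around the start of S phase.

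The labels were checked first. CA9, a hypoxia-induced carbonic anhydrase, was 10.4 and 8.64 CPM (counts relative to library size, with library sizes scaled by the TMM method) in normoxic T of MCF10A and 522 and 658 CPM in hypoxia. In MDA-MB-231 it was 0.574 and 0.0568 CPM in normoxic T and 19.2 and 13.0 CPM in hypoxia. Of 8 epithelial and basal markers chosen for MCF10A, CDH1, EPCAM and TP63 were at or below 0.461 CPM in every library labelled MCF10A, while the basal keratin KRT5 averaged 2008 CPM. VIM, a mesenchymal intermediate filament gene chosen as a marker of MDA-MB-231, averaged 3488 CPM in MCF10A and 4107 CPM in MDA-MB-231. In MDA-MB-231, 5 of the 8 MCF10A markers (CDH1, KRT14, KRT5, KRT6A, TP63) and SPARC of its own list stayed below 1 CPM in every library. The summed level of the MCF10A markers was 2992 and 1996 CPM in normoxic T of MCF10A and 6527 and 9508 CPM in HPP. That of the MDA-MB-231 markers in the same libraries was 3236 and 3733 CPM against 6554 and 11419 CPM. In P of MCF10A the first sum was 3098 and 2287 CPM in normoxia and 8843 and 11841 CPM in HPP, and the second 5706 and 4071 CPM and 4292 and 3990 CPM. For MDA-MB-231 the MCF10A markers summed to 285 and 240 CPM in normoxic T against 497 and 513 CPM in HPP, and to 303 and 276 CPM against 572 and 498 CPM in P. The sums of its own markers were 5326 and 5977 CPM in normoxic T, 8227 and 9214 CPM in HPP T, 5997 and 6629 CPM in normoxic P and 6765 and 6934 CPM in HPP P. The part of either list in the results on replication genes was not tested.

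Some libraries stood apart from their replicate. Between the MCF10A NPP total libraries the log2 difference had an SD of 1.19 over all genes and of 0.824 over the 43 members, against 0.396 and 0.181 between the normoxic total libraries. This difference followed transcript length, with a Spearman correlation of -0.657 across 13068 genes and of -0.534 across the 43 members (genes are not independent replicates). In the second NPP total library RPA3 (canonical transcript of 2020 bases) was at 117 CPM against 53.2 CPM in the first. The longer POLA1 mRNA (5487 bases) was at 8.21 against 31.7 CPM. Similar length-linked differences separated the replicates of H and HPP in T and of N and H in P of MCF10A, with correlations of -0.584, -0.603, 0.666 and 0.605 across all genes. In MDA-MB-231 they were found for H in T (-0.505 across all genes and -0.721 across the members) and for N in P (0.390 and 0.551), and N in T had -0.203 across all genes and -0.523 across the members. An offset for transcript length was therefore fitted as an alternative, chosen after seeing these data.

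**Figure D1:**
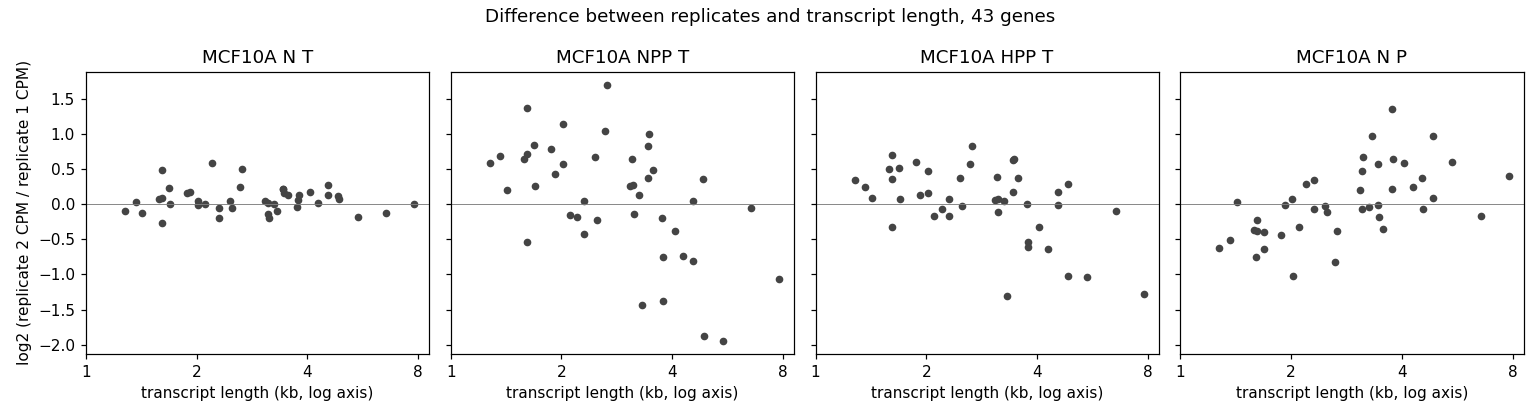
Each point is 1 of the 43 genes in MCF10A, with the length of its canonical transcript in kb on a log axis and the log2 ratio of replicate 2 to replicate 1 CPM on the vertical axis, for 4 groups. Points lie near 0 at every length in N T (SD 0.181), fall with length in NPP T (SD 0.824) and HPP T (SD 0.513), and rise with length in N P (SD 0.509).

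To describe the genes outside the expression data, RefSeq promoters of GRCh38.p14 (250 bases before to 50 after the start) were searched for short words on both strands. A promoter was present for 37 members; MCM4, MCM5, GINS4, POLD3, RPA2 and RPA3 had none in the table. E2F words (TTTCGCGC, TTTGGCGC, TTTCCCGC or TTTGCCGC) were found in 18 of the 37 member promoters (48.6%) and in 625 of all 14419 promoters (4.33%). The CCAAT word was found in 59.5% of member promoters and 36.4% of all promoters, and the words ACGTG or GCGTG, the core bound by hypoxia-inducible factors, in 73% and 56.4%. TTTGAA, a core of the cell cycle homology region typical of mitotic genes, was in 2.7% against 11.9%. The E2F words of CDC6, GINS1 and MCM2 lie after the annotated start, while ORC1, MCM10, CDC45, PRIM1 and FEN1 have no E2F word in this window. Upstream windows are shown for 6 members whose levels are described below, on the strand of the gene, with the E2F word or its reverse complement in capitals:
MCM3 (chr6:52284899-52284926, minus strand): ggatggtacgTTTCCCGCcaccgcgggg
MCM6 (chr2:135876578-135876605, minus strand): gggctttgcaTTTGGCGCgaaatccctt
MCM7 (chr7:100101567-100101594, minus strand): agctcggaccGCGGGAAAcccggcgcct
CDT1 (chr16:88803744-88803771, plus strand): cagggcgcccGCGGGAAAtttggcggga
PCNA (chr20:5126664-5126691, minus strand): agcgtcagggGCGGGAAAaggcgtgcgt
POLA2 (chr11:65261899-65261926, plus strand): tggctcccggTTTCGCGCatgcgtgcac
In MCM6 the word overlaps the reverse complement of another of the words, TTTCGCGC, and the same overlapping pair occurs again nearer to the start, so that its 4 matches mark 2 places. A match is only a run of letters and does not show binding.

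Taken as a whole, the 43 genes made up 0.374% and 0.389% of protein-coding counts in normoxic total mRNA of MCF10A and 0.184% and 0.166% in HPP. In MDA-MB-231 the shares were 0.590% and 0.599% in normoxia and 0.431% and 0.430% in HPP. In hypoxia alone MCF10A had 0.235% and 0.221% and MDA-MB-231 0.479% and 0.489%, so in T of both lines the order was N, H, HPP with no overlap between these groups. With PP242 in normoxia MCF10A had 0.336% and 0.297% and MDA-MB-231 0.549% and 0.557%, below the normoxic pair in each line. In P of MCF10A the shares were 0.387% and 0.468% in N, 0.249% and 0.279% in H and 0.245% and 0.247% in HPP, with HPP just below H, while NPP, at 0.530% and 0.456%, was not below N. In P of MDA-MB-231 N was at 0.656% and 0.680%, with H the lowest at 0.531% and 0.526%, HPP at 0.542% and 0.557% and NPP above N at 0.689% and 0.706%. In bulk samples such as these, fewer cells in S phase and less mRNA per cell cannot be told apart.

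**Figure D2:**
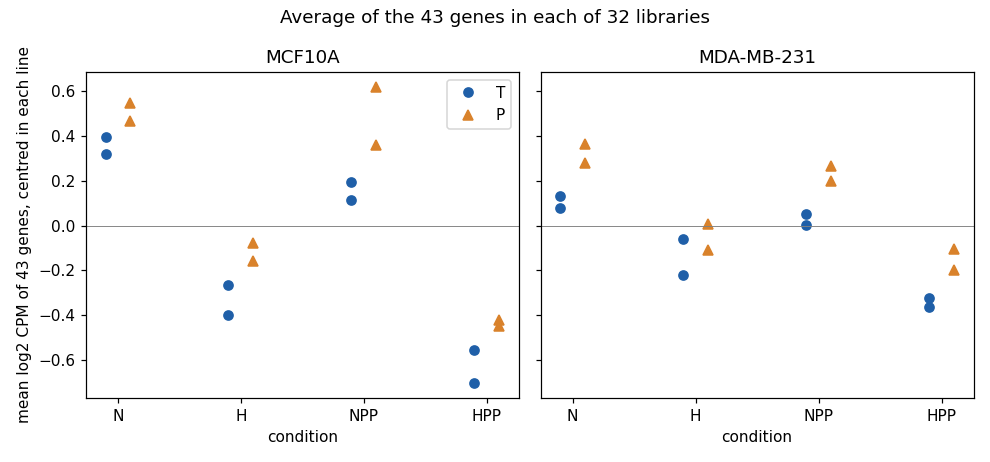
The mean log2 CPM of the 43 genes, centred on the average of each line, is plotted for each of 32 libraries by condition (circles T, triangles P). In T of MCF10A the mean went from 0.32 and 0.40 in N to -0.70 and -0.55 in HPP, and in T of MDA-MB-231 from 0.08 and 0.13 to -0.32 and -0.36, while H lies between.

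The first comparison asked what hypoxia alone did. In MCF10A, all 43 members had a negative log2 fold change in T (median -0.66, from -1.17 to -0.20) and in P (median -0.68), against medians of -0.03 and -0.07 over all genes tested. Both hypoxic libraries lay below both normoxic ones for 41 members in T and 36 in P, where this held for 26.8% and 20.2% of all genes. The edgeR quasi-likelihood test with Benjamini-Hochberg adjustment called 1 member lower in each fraction, MCM3 in T and POLE2 in P, where 0.145% and 0.16% of all genes were called lower. Before adjustment, 25 members in T and 25 in P had p under 0.05, as did 10.9% and 12.5% of all genes.

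MCM3, a subunit of the helicase ring, was at 163 and 168 CPM in normoxic T of MCF10A and at 83.9 and 86.1 CPM in hypoxia (log2 fold change -0.96, SE 0.21, edgeR adjusted p = 0.0467). POLE2, the second subunit of polymerase epsilon, was at 29.5 and 22.4 CPM in normoxic P and at 9.58 and 7.25 CPM in hypoxic P (log2 fold change -1.63, SE 0.292, edgeR adjusted p = 0.0169). Neither gene's groups overlapped. PCNA, the sliding clamp, went from 360 and 335 CPM to 158 and 210 CPM in T without passing the adjustment (edgeR adjusted p = 0.218). DESeq2 called 9 members in T and 13 in P, and the length offset gave 11 in each. Shares of all genes, here and below, are those of the main edgeR fit. They are not given for the alternatives, so counts under these are not read as results about the members. Leaving out any 1 of the 4 libraries compared left no edgeR call in either fraction. Same-numbered libraries of N and H deviated together in both fractions, and a fit with the replicate number as a block within each fraction called 4 members in T and 11 in P. The call in T was lost, with 0 members called, under a replicate block without the split by fraction, RLE scaling, all gene classes, no count filter, and without the second NPP total library, and MCM3 was kept in 6 of 15 alternatives. Fitted on the compared libraries alone, 6 members were called in T and 0 in P.

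In MDA-MB-231 the median log2 fold change in hypoxia was -0.24 in T and -0.39 in P, against -0.02 and 0.01 over all genes. The groups did not overlap, with hypoxia lower, for 28 members in T and 35 in P (20.2% and 20.5% of all genes). Called lower were MCM5 and LIG1 in T, and ORC1, MCM3, MCM5, MCM6, PRIM1, LIG1 and RRM1 in P (0.289% and 0.511% of all genes). LIG1, the ligase that seals Okazaki fragments, was at 105.3 and 108.1 CPM in normoxic T and 70.6 and 72.9 CPM in hypoxia (log2 fold change -0.57, SE 0.125, edgeR adjusted p = 0.0386). MCM5 was at 107.4 and 116.5 CPM in normoxic T and 73.5 and 72.4 CPM in hypoxia (log2 fold change -0.62, SE 0.14, edgeR adjusted p = 0.047). Hypoxic libraries were below normoxic ones for both genes in both fractions.

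In P of MDA-MB-231 the largest called fall was that of PRIM1, the catalytic subunit of primase, from 50.1 and 44.4 CPM to 31.4 and 23.6 CPM (log2 fold change -0.78, SE 0.175, edgeR adjusted p = 0.0321). MCM3 followed with 423 and 402 CPM in normoxia and 264 and 247 CPM in hypoxia (log2 fold change -0.69, edgeR adjusted p = 0.00627). The other called members of that fraction had log2 fold changes of -0.68 (MCM5), -0.67 (ORC1), -0.64 (LIG1), -0.56 (MCM6) and -0.53 (RRM1). The hypoxic and normoxic pairs of all 7 genes were apart. By role, the helicase ring had the lowest median of the role groups with more than 2 members in both fractions (-0.43 in T and -0.55 in P). With any 1 of the 4 libraries compared left out, the count was 0 in T and 1 or 2 in P, DESeq2 called 6 and 14, and the length offset gave 4 and 14. With the replicate block within each fraction the count in P was 11, and fitted on the compared libraries alone it was 0 in T and 0 in P. No member's hypoxia effect differed between the lines in the joint edgeR fit (0 in T and 0 in P, where 0.266% and 0.329% of all genes did; 7 and 2 members had an unadjusted p under 0.05, against 7.47% and 6.49% of all genes, and DESeq2 called 0).

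The effect of PP242 alone was read in normoxia. In MCF10A the median log2 fold change was 0.00 in T, with 22 members negative and 21 positive, and -0.07 in P. The range was -1.54 to 0.70 in T and -1.15 to 1.05 in P, and 6 and 10 members had an unadjusted p under 0.05, as did 9.54% and 13.3% of all genes. CDC6, the ATPase that loads the MCM ring, was the single member called lower in each fraction (0.305% and 0.351% of all genes). It was at 83.9 and 91.9 CPM in normoxic T and 40.1 and 41.4 CPM in NPP (log2 fold change -1.11, SE 0.199, edgeR adjusted p = 0.0356). In P the NPP libraries were at 52.6 and 41.2 CPM, 45.2% of the normoxic mean (log2 fold change -1.14, SE 0.199, edgeR adjusted p = 0.0245). The NPP libraries were below the normoxic ones in both fractions. Without the second NPP total library, which stood apart, or without either normoxic library no member was called in T, without the first NPP total library 2 were, and in P leaving out any 1 of the 4 libraries left none. With the replicate block within each fraction 2 members were called in T and 2 in P. DESeq2 called 2 in T and 5 in P, and the length offset 2 and 3. No member was called in T with RLE scaling, and in neither fraction without the count filter or on the compared libraries alone. Over all 43 members in P, both NPP libraries lay above both normoxic ones for 12 and below both for 12. The share of all genes separated in this way was not computed for PP242 alone, so these counts are not read further. The median log2 fold change over all genes tested in P was -0.035. POLA1, RRM1, LIG1 and ORC3, named after their values were seen, belong to the higher 12. They were in P at 207%, 202%, 162% and 155% of the normoxic mean CPM, and none of these genes was called. At the other end CDC6, MCM10, GINS1 and FEN1 were at 45.2%, 49%, 58.4% and 61.3%, and of these CDC6 alone was called. The normoxic P libraries differed with transcript length (Spearman correlation 0.666 across all genes). CPM is relative to each library, so these values do not give the amount of polysomal mRNA.

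In MDA-MB-231, 0 members were called by edgeR in T with PP242 alone (0.178% of all genes were lower; 4 members and 10.3% of all genes had an unadjusted p under 0.05, DESeq2 called 2 members and the replicate block within each fraction 1). In P, CDC6 and MCM10 were called lower, where 1.19% of all genes were. CDC6 was at 193 and 243 CPM in normoxic P and 135 and 143 CPM in NPP (log2 fold change -0.65, SE 0.153, edgeR adjusted p = 0.041). MCM10 was at 69.9 and 93.2 CPM and 55.3 and 50.0 CPM (log2 fold change -0.63, SE 0.151, edgeR adjusted p = 0.0448). Neither pair overlapped, and without either NPP library, without the second normoxic one or on the compared libraries alone no member was called in P. RRM1, the large subunit of ribonucleotide reductase, was numerically higher with PP242 in P of MCF10A, at 101.2 and 160.9 CPM in normoxia and 300.3 and 228.1 CPM in NPP, and was not called. The effect of PP242 was not called different between the lines for any member (0 in T and 0 in P by edgeR and by DESeq2, where edgeR called 0.056% and 0.126% of all genes; 3 and 3 members and 4.13% and 4.4% of all genes had an unadjusted p under 0.05). Without the first MCF10A NPP total library, 4 members were called in T.

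Under hypoxia with PP242 more of the genes passed the edgeR test than in hypoxia alone. In MCF10A, 18 of 43 members were called lower in T and 26 in P, where 7.47% and 11.9% of all genes were, and none was called higher. With the replicate block within each fraction the count in T was 30. In MDA-MB-231, 18 were called lower in T and 19 in P, where 6.91% and 9.73% of all genes were, again with none higher. The median log2 fold changes were -0.89 in T and -1.08 in P of MCF10A and -0.45 and -0.43 for MDA-MB-231, while those of all genes lay between -0.05 and 0.01. Both HPP libraries lay below both normoxic ones for 36 and 34 members in T and P of MCF10A (32.3% and 31.2% of all genes) and for 36 and 36 in MDA-MB-231 (34% and 30.5% of all genes).

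**Figure D3:**
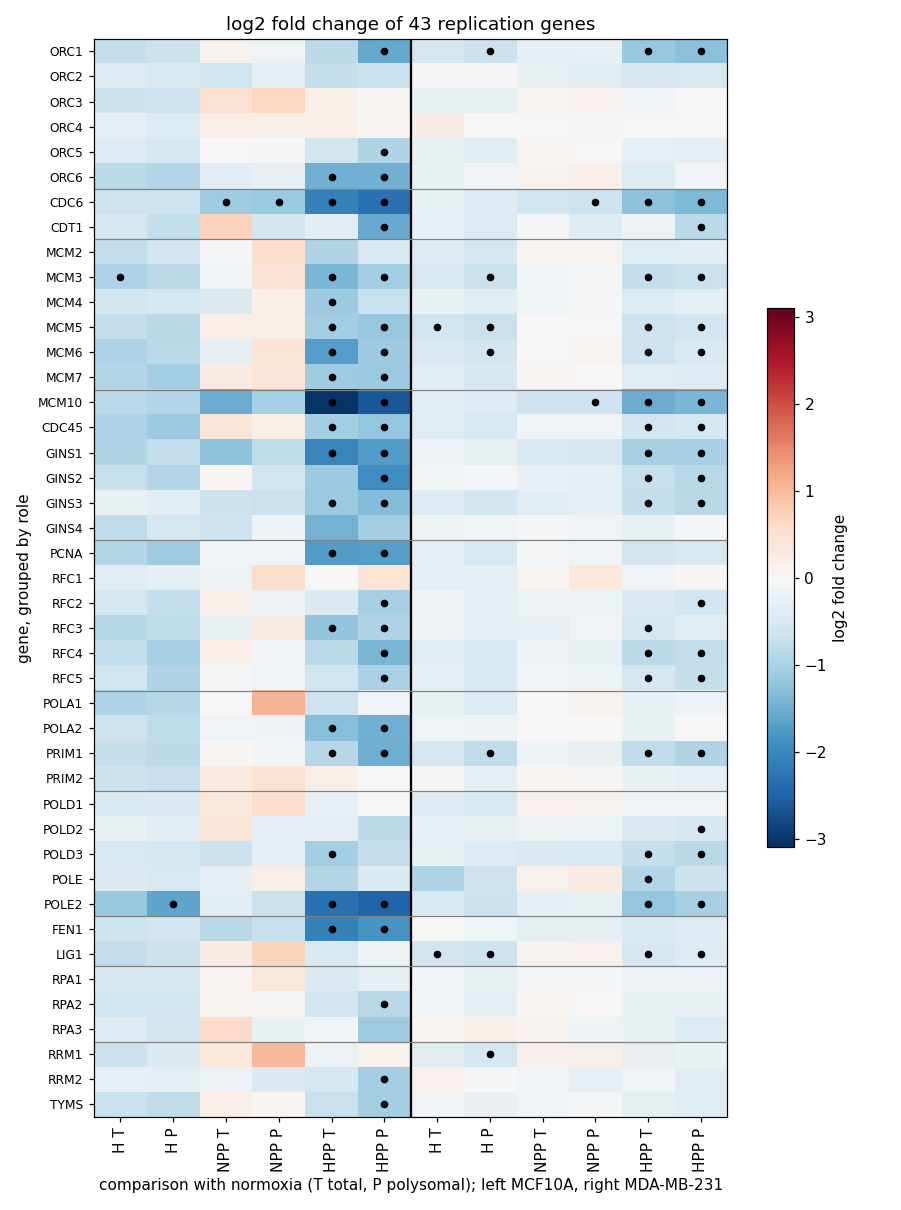
The map shows the log2 fold change against normoxia of the 43 genes (rows, grouped by role) in H, NPP and HPP, each in T and P, with MCF10A on the left and MDA-MB-231 on the right; a black dot marks an edgeR adjusted p under 0.05. Dots gather in the HPP columns (18, 26, 18 and 19), and the darkest blue is MCM10 in HPP T of MCF10A at -3.03.

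In HPP, 10 of the 43 genes were lower in T and P of both lines: CDC6, MCM3, MCM5, MCM6, MCM10, CDC45, GINS1, GINS3, PRIM1 and POLE2. Of the 12374 genes tested in both lines 2.1% were. They come from licensing, the helicase ring, its activation, primase and polymerase epsilon. Of these genes, CDC6, MCM10 and POLE2 were called in T and P of both lines under every alternative run. In T of MCF10A the call was kept in 6 of 15 alternatives for MCM5 and in 7 for CDC45. In T the lines had 12 called genes in common, which is 12 of 18 in each, and in P 16, of 26 in MCF10A and of 19 in MDA-MB-231, where 2.84% and 5.83% of the genes tested in both lines were lower in T and in P of both. For 12 members, ORC2, ORC3, ORC4, MCM2, GINS4, RFC1, POLA1, PRIM2, POLD1, RPA1, RPA3 and RRM1, HPP was called lower in neither fraction of either line, as for 80.2% of the genes tested in both.

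Of the origin recognition complex, which marks where replication can start, 1 of 6 subunits was called lower in T and 3 in P of MCF10A, and ORC1 alone in T and in P of MDA-MB-231. ORC6 had the highest mean CPM of its subunits in both lines (CPM is not adjusted for transcript length). In T of MCF10A it was at 50.7 and 42.1 CPM in normoxia and 18.5 and 14.8 CPM in HPP (log2 fold change -1.48, SE 0.311, edgeR adjusted p = 0.0089). ORC1, the ATPase subunit, was at 39.5 and 39.2 CPM in normoxic T of MDA-MB-231 and at 18.7 and 16.4 CPM in HPP (log2 fold change -1.17, SE 0.145, edgeR adjusted p = 0.000233). These groups were apart. ORC3 and ORC4 had log2 fold changes of 0.15 and 0.17 in HPP T of MCF10A, with both HPP libraries above the normoxic ones, and neither was called.

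Licensing was represented by CDC6 and CDT1. CDC6 was at 19.3 and 21.6 CPM in HPP T of MCF10A, 23.3% of the normoxic mean (log2 fold change -2.10, SE 0.205, edgeR adjusted p = 0.000155). In T of MDA-MB-231 it was at 185 and 228 CPM in normoxia and 88.0 and 83.2 CPM in HPP, 41.4% of the normoxic mean (log2 fold change -1.27, SE 0.155, edgeR adjusted p = 0.000214). In both lines its 4 conditions in T followed the order N, H, NPP, HPP without overlap. CDT1, which brings the MCM ring to the origin, had overlapping groups in T of both lines (log2 fold changes of -0.32 and -0.16, not called). Its polysomal level was lower, with 54.5 and 42.0 CPM in normoxia and 17.99 and 14.73 CPM in HPP in MCF10A (log2 fold change -1.56, SE 0.462, edgeR adjusted p = 0.0319). In P of MDA-MB-231 CDT1 was at 90.2 and 110 CPM and 52.6 and 60.5 CPM (log2 fold change -0.83, SE 0.179, edgeR adjusted p = 0.00603).

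Every subunit of the MCM2 to MCM7 ring, the replicative helicase, was below normoxia in HPP T without overlap in both lines. MCM3, MCM4, MCM5, MCM6 and MCM7 were called lower in T of MCF10A, and MCM3, MCM5 and MCM6 in T of MDA-MB-231. MCM7, the subunit with the highest mean CPM, was at 219 and 226 CPM in normoxic T of MCF10A and 90.5 and 118 CPM in HPP (log2 fold change -1.10, SE 0.263, edgeR adjusted p = 0.0167). MCM6 had the largest fall of the ring there, from 128 and 125 CPM to 38.3 and 38.4 CPM (log2 fold change -1.72, SE 0.222, edgeR adjusted p = 0.000678). In T of MDA-MB-231 the largest was that of MCM3, from 367 and 372 CPM to 225 and 211 CPM (log2 fold change -0.76, SE 0.118, edgeR adjusted p = 0.00121). MCM2 was called in none of the 4 tests, with log2 fold changes of -0.93 and -0.50 in T and P of MCF10A and -0.36 and -0.35 in MDA-MB-231.

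MCM10 had the largest fall of the 43 genes in HPP in T and P of both lines. It was at 26.2 and 31.6 CPM in normoxic T of MCF10A and at 3.55 and 3.53 CPM in HPP, 12.2% of the normoxic mean (log2 fold change -3.03, SE 0.333, edgeR adjusted p = 0.000278). MCM10 in T of MDA-MB-231 was at 82.5 and 84.6 CPM in normoxia and 30.8 and 26.8 CPM in HPP, 34.5% of the normoxic mean (log2 fold change -1.54, SE 0.154, edgeR adjusted p = 4.63e-05). The gene's 4 conditions ran N, H, NPP, HPP in T of both lines with no overlap. CDC45, which binds the MCM ring when it is activated, was at 44.0 and 49.0 CPM in normoxic T of MCF10A and 17.9 and 27.0 CPM in HPP (log2 fold change -1.05, SE 0.305, edgeR adjusted p = 0.0393). In MDA-MB-231 CDC45 was, in T, at 74.8 and 84.4 CPM and 53.5 and 52.0 CPM (log2 fold change -0.59, SE 0.138, edgeR adjusted p = 0.0125).

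GINS1 to GINS4 form the third component of the active helicase. GINS1 was at 48.5 and 45.5 CPM in normoxic T of MCF10A and 16.1 and 6.51 CPM in HPP (log2 fold change -2.06, SE 0.535, edgeR adjusted p = 0.0242). GINS1 in MDA-MB-231 was, in T, at 52.9 and 56.1 CPM and 26.1 and 27.7 CPM (log2 fold change -1.02, SE 0.183, edgeR adjusted p = 0.00309). GINS2, the activation factor with the highest mean CPM in MCF10A, was called in P of that line (log2 fold change -1.94, edgeR adjusted p = 0.00909) and not in T (log2 fold change -1.13, edgeR adjusted p = 0.0994). GINS4 was not called, at 16.03 and 16.73 CPM in normoxic T of MCF10A and 7.17 and 4.70 CPM in HPP.

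**Figure D4:**
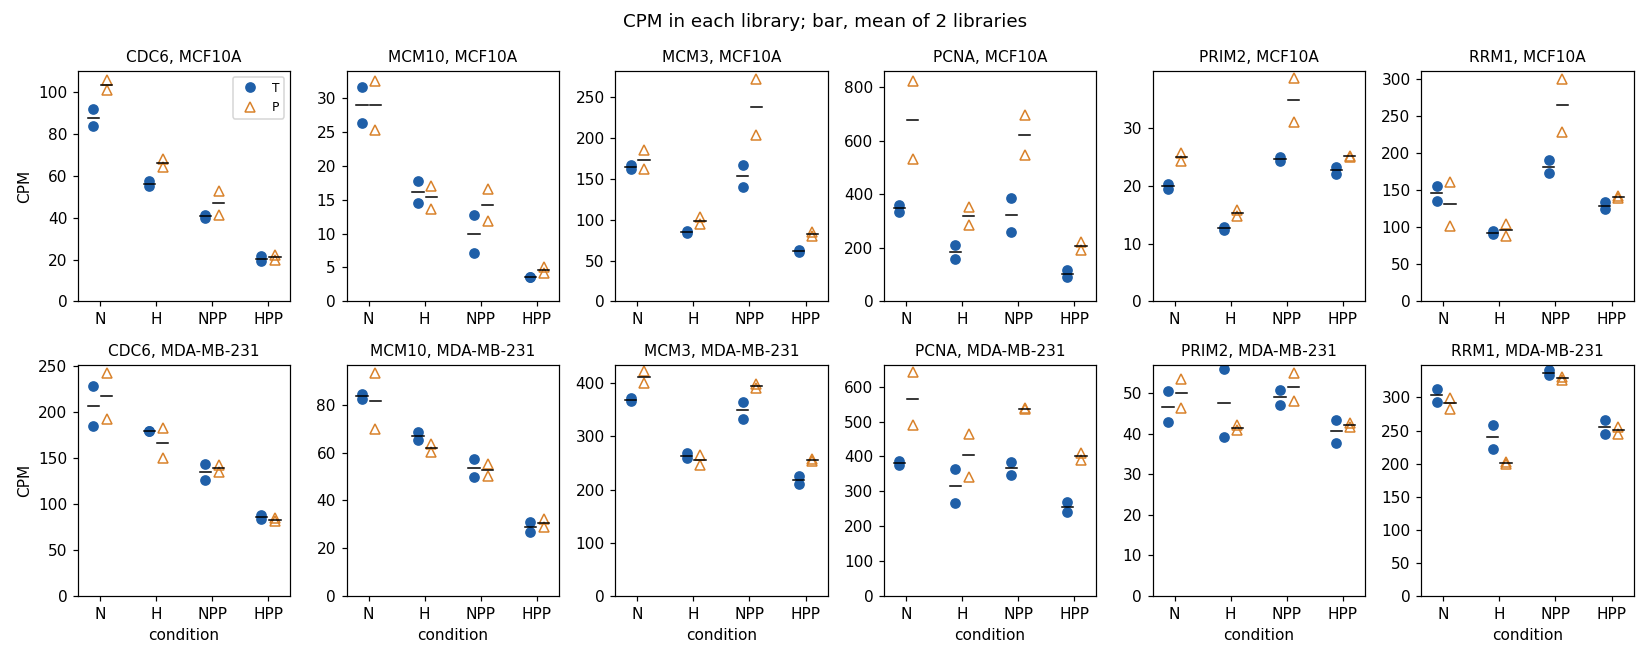
CPM of 6 genes is shown in each library by condition, with MCF10A above and MDA-MB-231 below (filled circles T, open triangles P, short bars the mean of 2 libraries; each panel has its own axis from 0). CDC6 and MCM10 step down from N through H and NPP to HPP in T, in MCF10A PCNA and MCM3 are low in both H and HPP, and PRIM2 and RRM1 in MCF10A are low in H and higher in HPP.

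Per kb of transcript, PCNA had the highest level of the 43 genes in normoxic T of MCF10A, at 272 CPM per kb, and second to TYMS in MDA-MB-231, at 299 against 347 CPM per kb. In MCF10A it was at 91.9 and 116 CPM in HPP T, 30% of the normoxic mean (log2 fold change -1.74, SE 0.306, edgeR adjusted p = 0.00334). In P of that line it was at 825 and 534 CPM in normoxia and 191 and 223 CPM in HPP (log2 fold change -1.72, SE 0.305, edgeR adjusted p = 0.00283). PCNA in T of MDA-MB-231 was at 385 and 377 CPM and 270 and 241 CPM without passing the adjustment (log2 fold change -0.58, edgeR adjusted p = 0.0521). Of the loader subunits RFC1 to RFC5, RFC3 was called in T of both lines, and RFC4 had the largest fall in T of MDA-MB-231, from 106.4 and 117.7 CPM to 60.8 and 66.6 CPM (log2 fold change -0.82, SE 0.194, edgeR adjusted p = 0.0137). RFC1, the large subunit, had log2 fold changes of -0.01 and 0.43 in T and P of MCF10A with overlapping groups.

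Among the 4 subunits of polymerase alpha-primase, POLA2 and PRIM1 were called lower in T and P of MCF10A, and PRIM1 alone in both fractions of MDA-MB-231. POLA2, the accessory subunit, was at 33.7 and 36.9 CPM in normoxic T and 12.3 and 15.8 CPM in HPP (log2 fold change -1.33, SE 0.26, edgeR adjusted p = 0.00603). In T of MDA-MB-231 it was at 33.9 and 31.8 CPM and 29.0 and 28.2 CPM (log2 fold change -0.20, edgeR adjusted p = 0.402). In MCF10A, PRIM1 was at 19.9 and 18.2 CPM in normoxic T and 9.95 and 10.6 CPM in HPP (log2 fold change -0.89, SE 0.205, edgeR adjusted p = 0.0141), while PRIM2, its regulatory partner, was at 20.2 and 19.5 CPM and 22.1 and 23.3 CPM (log2 fold change 0.19, not called). POLA1, the catalytic subunit, was called in none of the tests.

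Of 5 subunits of polymerases delta and epsilon, POLE2 fell most in both lines. In T of MCF10A it was at 15.7 and 15.7 CPM in normoxia and 3.06 and 3.22 CPM in HPP, 20% of the normoxic mean (log2 fold change -2.32, SE 0.302, edgeR adjusted p = 0.000702). In T of MDA-MB-231 it was at 55.0 and 60.7 CPM and 26.6 and 23.8 CPM (log2 fold change -1.20, SE 0.17, edgeR adjusted p = 0.000644). Its HPP libraries lay below the normoxic ones throughout. POLD3 was called in T of both lines (log2 fold changes -1.07 and -0.74), and POLE, the catalytic subunit of polymerase epsilon, in T of MDA-MB-231 (log2 fold change -0.90, edgeR adjusted p = 0.0262). POLD2, an accessory subunit of polymerase delta, was called in P of MDA-MB-231 (log2 fold change -0.52, edgeR adjusted p = 0.0338), and POLD1, the catalytic subunit of polymerase delta, in no test.

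Of the 2 maturation genes, FEN1 was called in both fractions of MCF10A and LIG1 in both of MDA-MB-231. FEN1, the flap endonuclease, was at 104.2 and 106.9 CPM in normoxic T of MCF10A and 23.6 and 26.2 CPM in HPP, 23.6% of the normoxic mean (log2 fold change -2.08, SE 0.253, edgeR adjusted p = 0.000473). FEN1 in T of MDA-MB-231 was at 259 and 310 CPM and 204 and 204 CPM (log2 fold change -0.48, edgeR adjusted p = 0.0694). LIG1 was called in T of MDA-MB-231 (log2 fold change -0.53, SE 0.125, edgeR adjusted p = 0.0134) and had a log2 fold change of -0.46 in T of MCF10A (edgeR adjusted p = 0.172). LIG1 did not pass the test of a difference between the lines in T (edgeR adjusted p = 1).

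Genes of single-strand binding and nucleotide synthesis were called in P of MCF10A and in no other HPP test. In T, 0 of 3 RPA genes and 2 of 3 nucleotide genes had an unadjusted p under 0.05 in MCF10A, against 0 and 1 for MDA-MB-231 (29.1% and 28.8% of all genes). RPA1, the large subunit of the single-strand binding complex, was at 144 and 156 CPM in normoxic T of MCF10A and 98.6 and 121 CPM in HPP (log2 fold change -0.45, edgeR adjusted p = 0.223). TYMS, thymidylate synthase, was at 252 and 269 CPM and 142 and 182 CPM (log2 fold change -0.69, edgeR adjusted p = 0.123). In P of MCF10A, RPA2, RRM2 and TYMS were called lower. RRM2, the regulated subunit of ribonucleotide reductase, was at 343 and 332 CPM in normoxic P and 159 and 158 CPM in HPP (log2 fold change -1.09, SE 0.196, edgeR adjusted p = 0.00297). RRM1 was at 101.2 and 160.9 CPM and 142.2 and 138.9 CPM, so its groups overlapped.

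The HPP counts depended on single libraries. In T of MCF10A 8 members were called without the second HPP library and 9 without the first HPP library or either normoxic one. In P of MCF10A there were 12 without the second HPP library and 15 without the first normoxic one, and 14 in a fit on the compared libraries alone. In T of MDA-MB-231 there were 7 without the second HPP or the second normoxic library and 8 without the first HPP library, and in P 9 without the first HPP library and 12 without the first normoxic one. With an offset for transcript length the counts were 29 in T and 29 in P of MCF10A and 24 and 28 in MDA-MB-231, and without the second MCF10A NPP total library they were 20 and 26 in MCF10A. The share of all genes called in these fits is not given. Called under every alternative run, the libraries left out included, were CDC6, FEN1, MCM10, MCM3, MCM6 and POLE2 in T of MCF10A, and CDC6, GINS1, MCM10, MCM3, ORC1 and POLE2 in T of MDA-MB-231. In P of MCF10A these were CDC6, FEN1, GINS3, MCM10, ORC1, PCNA, POLA2, POLE2 and PRIM1. In P of MDA-MB-231 they were CDC6, GINS1, MCM10, MCM3, ORC1, POLD3, POLE2, PRIM1 and RFC5.

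PP242 within hypoxia was read from HPP against H, which uses the hypoxic libraries as controls. In MCF10A, 3 members were lower in T (CDC6, MCM10, FEN1) and 5 in P (the same 3 with GINS3 and RRM2), where 2.42% and 3.87% of all genes were lower. With the replicate block within each fraction 8 members were called in T, 6 lower and 2 higher, and 11 in P, 9 lower and 2 higher. In MDA-MB-231, 5 were lower in T (ORC1, CDC6, MCM10, GINS1, POLE2) and 6 in P (ORC1, CDC6, MCM10, GINS1, GINS2, POLD3), where 2.08% and 6.62% of all genes were. The median over the members was -0.17 in T and -0.28 in P of MCF10A and -0.22 and -0.01 in MDA-MB-231. In all, 10 members were lower in at least 1 of the 4 tests, and CDC6 and MCM10 were lower in all 4, against 10.5% and 0.444% of the genes tested in both lines.

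CDC6 was at 55.2 and 57.5 CPM in hypoxic T of MCF10A, above both HPP libraries (log2 fold change -1.46, SE 0.202, edgeR adjusted p = 0.00339). In MDA-MB-231 it was at 179 and 180 CPM in hypoxic T (log2 fold change -1.07, SE 0.155, edgeR adjusted p = 0.00356). MCM10 was at 17.7 and 14.5 CPM in hypoxic T of MCF10A (log2 fold change -2.19, SE 0.323, edgeR adjusted p = 0.00411) and at 68.8 and 65.4 CPM in that of MDA-MB-231 (log2 fold change -1.22, SE 0.153, edgeR adjusted p = 0.00121). HPP libraries were below hypoxic ones for both genes. FEN1 was at 62.1 and 72.5 CPM in hypoxic T of MCF10A (log2 fold change -1.44, SE 0.248, edgeR adjusted p = 0.00874), and ORC1 at 27.6 and 27.5 CPM in hypoxic T of MDA-MB-231 (log2 fold change -0.65, SE 0.144, edgeR adjusted p = 0.0232). GINS1 was at 40.4 and 55.3 CPM in the same libraries (log2 fold change -0.83, SE 0.183, edgeR adjusted p = 0.0233).

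PRIM2 was the one member called higher. In MCF10A it was at 12.4 and 12.8 CPM in hypoxic T against 22.1 and 23.3 CPM in HPP, and was called higher (log2 fold change 0.85, SE 0.202, edgeR adjusted p = 0.0398), as were 1.33% of all genes. In P it was at 14.8 and 15.8 CPM and 25.2 and 25.0 CPM (log2 fold change 0.71, not called). The hypoxic libraries were thus the low ones, since normoxia was at 20.2 and 19.5 CPM in T. Fitted on the compared libraries alone, 0 members of MCF10A were called in T or P for HPP against H, and leaving out 1 library left 1 to 3 in T and 1 or 2 in P. DESeq2 called 8 in T and 10 in P there, and the length offset gave 8 and 8. In MDA-MB-231 no member was called in T without the second HPP library, 2 without the first HPP or the second hypoxic one, and 2 or 3 in P without any 1 library.

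**Figure D5:**
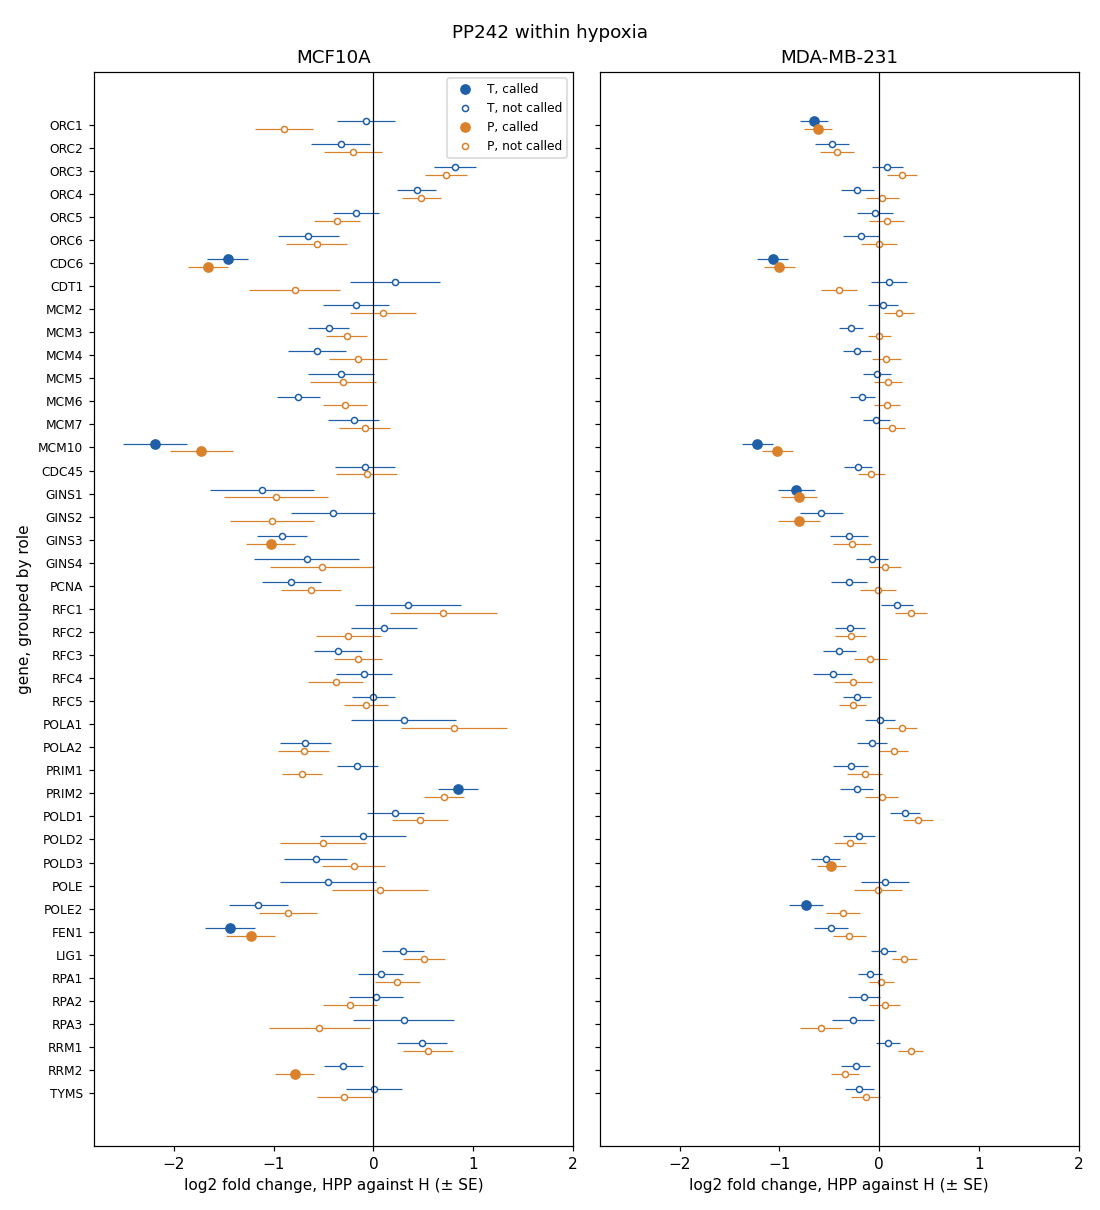
The log2 fold change of HPP against H is plotted with its SE for each of the 43 genes (rows) in T (blue) and P (orange), with MCF10A on the left and MDA-MB-231 on the right; large filled points have an edgeR adjusted p under 0.05. CDC6 and MCM10 are filled and left of 0 in all 4 series, and PRIM2 in T of MCF10A, at 0.85, is the filled point right of 0.

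Whether the combined change differed from the sum of the single changes was tested as HPP minus H minus NPP plus N. The edgeR test called 0 members in T and 0 in P of either line, and DESeq2 called 0. It called 0% of all genes in T and in P of MCF10A and 0.0074% in each fraction of MDA-MB-231. Unadjusted p under 0.05 was found for 0 and 3 members in T and P of MCF10A (1.75% and 2.71% of all genes) and for 1 and 0 in MDA-MB-231 (0.984% and 4.17%). For MCM10 in T of MDA-MB-231 the departure from the sum was -0.58 (SE 0.213, edgeR adjusted p = 1) on the log2 scale, and for MCM3 in P of MCF10A it was -0.72 (SE 0.295, edgeR adjusted p = 1).

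Polysome loading was compared as the change in P minus the change in T (Te). For hypoxia, PP242 and the combination, edgeR called 0 members in either line, as did DESeq2, where edgeR called 0%, 0% and 0% of all MCF10A genes and 0.0148%, 0.34% and 0.696% of all MDA-MB-231 genes. Of the MCF10A members 0, 1 and 1 had an unadjusted p under 0.05 (0.175%, 2.26% and 3.3% of all genes), of those of MDA-MB-231 0, 0 and 1 (1.33%, 2.18% and 3.36%). For MCF10A the median Te in HPP was -0.07, for MDA-MB-231 0.02, against 0.05 and 0.06 over all genes. CDT1 had the most negative Te in HPP in both lines, -1.24 (SE 0.641, edgeR adjusted p = 0.977) in MCF10A and -0.67 (SE 0.252, edgeR adjusted p = 1) in MDA-MB-231. In T of MCF10A its libraries overlapped, at 29.5 and 41.6 CPM in normoxia and 20.5 and 36.3 CPM in HPP.

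In normoxia itself, the log2 difference of P against T was positive for 31 members and negative for 12 in each line. The test treated T and P libraries of 1 culture as independent, and a culture block was fitted for Te only. Replicate deviations in T and P of the same culture number correlated over 0.1 in 1 of 4 conditions in MCF10A and 3 of 4 in MDA-MB-231. In MDA-MB-231, CDC45, GINS3, RPA2 and TYMS were called higher in P, where 4.42% of all genes were. TYMS was at 546 and 575 CPM in T and 899 and 801 CPM in P (log2 difference 0.60, SE 0.145, edgeR adjusted p = 0.0164). RPA2 was at 105.3 and 122.4 CPM in T and 184 and 170 CPM in P (log2 difference 0.63, SE 0.157, edgeR adjusted p = 0.0191). CDC45 and GINS3 had log2 differences of 0.53 and 0.61, P was above T for all 4 genes, and without either total library or the first polysomal one none was called. DESeq2 called 10 members and a fit with either replicate block 7. In MCF10A 0 members and 0% of all genes were called by edgeR and 0 members by DESeq2, with 8 members and 12.6% of all genes at an unadjusted p under 0.05, among them PCNA at 360 and 335 CPM in T and 825 and 534 CPM in P (log2 difference 0.97, edgeR adjusted p = 0.334).

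A difference between the lines in the HPP effect was tested in a joint fit of all 32 libraries. Called were 6 members in T (CDC6, MCM6, MCM10, POLA2, POLE2, FEN1) and 4 in P (ORC6, POLA2, POLE2, FEN1), all with the larger fall in MCF10A, where 2.04% and 2.16% of all genes were called in that direction. FEN1 had the largest difference in T, -1.69 (SE 0.3, edgeR adjusted p = 0.00307), and POLA2 in P, -1.45 (SE 0.306, edgeR adjusted p = 0.00918). For POLE2 the difference was -1.22 in T and -1.44 in P. The median over the 43 members was -0.46 in T and -0.55 in P, against -0.05 in each over all genes. Leaving out any 1 of the 8 libraries compared gave 1 to 3 calls in T, the 1 without the first MDA-MB-231 HPP library, and 2 to 4 in P, the 2 without the second MCF10A HPP or the first MDA-MB-231 normoxic library. With RLE scaling or no count filter 3 were called in T, and DESeq2 and the replicate block within each fraction each called 8 in P. The length offset was not fitted for this comparison. The lines were deposited in separate tables, so a difference in level between them cannot be told apart from that split.

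Other genes of the S-phase programme were followed by lists that do not share members with the 43. In HPP T, 7.47% of all genes were called lower and 7.43% higher in MCF10A, and 6.91% lower and 6.31% higher in MDA-MB-231. Of 27 further replication factors, 8 were lower and none higher in HPP T of MCF10A, and 12 were lower and 2 higher in MDA-MB-231. Of 8 chromatin assembly genes 4 and 3 were lower, of 13 E2F and pocket protein genes 5 and 4, and of 7 genes of nucleotide supply 0 and 0 (edgeR). Calls in the higher direction are not given for these lists. Among 7 genes of the G1/S transition 4 were lower in MCF10A, and 2 were lower and 2 higher in MDA-MB-231. Of 20 mitotic genes none was lower in either line, with a median log2 fold change of -0.32 (MCF10A) and 0.12 (MDA-MB-231, where 3 were higher).

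CDC25A, the phosphatase that activates CDK2, was lower in both lines. It was at 17.5 and 24.7 CPM in normoxic T of MCF10A and 2.53 and 2.08 CPM in HPP (log2 fold change -3.19, SE 0.339, edgeR adjusted p = 0.000245). In MDA-MB-231 it was at 52.2 and 56.8 CPM and 15.6 and 16.6 CPM (log2 fold change -1.76, SE 0.149, edgeR adjusted p = 1.2e-05). Also among the 6 genes of these lists with the smallest adjusted p in MCF10A were E2F2 (log2 fold change -2.82), an activating E2F factor, CCNE1 (-1.997), cyclin E1, DSCC1 (-1.98), a subunit of an alternative clamp loader, E2F6 (-1.83), a repressive E2F factor, and MCMBP (-1.44), an MCM-binding protein. In MDA-MB-231 the others were ATAD5 (-1.26), which unloads PCNA, CCNE2 (-1.16), cyclin E2, CLSPN (-1.10), a fork protein needed for checkpoint signalling, MCM9 (12.1 and 13.3 CPM in normoxia, 6.51 and 6.18 CPM in HPP), an MCM relative, and UHRF1 (-0.95), which recruits the maintenance methylase. HPP and normoxic libraries were apart for each of these genes.

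The members varied in how closely they followed each other. The correlation of a gene with the mean of the other 42 over the 32 libraries, centred within line, was 0.964 for MCM3 and 0.951 for MCM6 at the high end and 0.0409 for RFC1, 0.276 for ORC4 and 0.326 for ORC3 at the low end. Outside the list, PRMT3 (0.977), YARS (0.958), NAE1 (0.953), CCT6A (0.952) and VRK1 (0.952) had the patterns most like the mean of the 43, among 12333 genes ranked over the same 32 libraries. These values describe libraries that differ in condition, fraction and depth, and carry no test.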

How the data were processed

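Poly(A)-selected RNA was sequenced in 32 libraries of total and polysomal mRNA. The authors aligned the reads with STAR and estimated gene counts with RSEM; the deposited values are RSEM expected counts, with reads that fit several genes shared between them. The labels name the build GRCh37 and the study's methods GRCh38, so no coordinate was taken from the tables. The kit named in the study's methods does not mark strand and RSEM was run with its defaults, which do not use it, so reads of a gene and of an overlapping antisense gene cannot be told apart.

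The expected counts were rounded to whole numbers, and protein-coding genes passing filterByExpr were tested in R 4.3.3 with edgeR 4.0.16 (TMM, quasi-likelihood F test, Benjamini-Hochberg over all genes tested, threshold 0.05). Genes tested were 13124 in MCF10A, 13510 in MDA-MB-231 and 14298 in the joint fit. The 8 groups of a line shared 1 fit with 8 residual degrees of freedom, and the lines were compared in a joint fit of 16 groups. Each SE was taken from the fold change and its F value. With 2 libraries against 2, an exact two-sided permutation test cannot give p under 0.333, so significance rests on the spread shared across groups and genes.

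Named with full values were called members whose groups did not overlap, in order of absolute log2 fold change, and in each role the member with the highest mean CPM or the largest HPP change in T; of the other S-phase genes, the 6 with the smallest adjusted p. The members and all lists were chosen with earlier results of these data known. Whether replicate numbers pair libraries was read from the data alone: deviations of same-numbered libraries from their group means correlated over 0.1 in 6 of 6 pairs of groups in T of MCF10A (0.283 to 0.778), against 3 of 6 in P of MCF10A and 4 of 6 in T and in P of MDA-MB-231. In P of MCF10A the pairs among N, H and HPP passed (0.311 to 0.635), and in MDA-MB-231 those among N, H and NPP (0.155 to 0.347). The block within each fraction is given beside comparisons of such groups where it moved the count of called members by over 1.5 times. The scripts were tested on simulated data. Alternatives were DESeq2 1.42.0, RLE scaling, no count filter, all gene classes, a threshold of 0.1, thinning to the shallowest library, fits on the compared libraries alone, replicate and culture blocks, each library left out in turn and, chosen after seeing the data, a length offset and a fit without the second MCF10A NPP total library.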

Additional observations from a re-analysis of the deposited data

Results flagged for a closer look

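The HPP effect differed between the lines for 6 members in T and 4 in P by the interaction in the joint edgeR fit, and in each case the fall was larger in MCF10A (differences on the log2 scale, MCF10A minus MDA-MB-231). In T the difference was -1.69 for FEN1 (edgeR adjusted p = 0.00307), -1.59 for MCM10 (adjusted p = 0.0148), -1.22 for POLE2 (adjusted p = 0.0301), -1.21 for POLA2 (adjusted p = 0.0293), -1.18 for MCM6 (adjusted p = 0.0107) and -0.92 for CDC6 (adjusted p = 0.0439). In P it was -1.45 for POLA2 (edgeR adjusted p = 0.00918), -1.44 for POLE2 (adjusted p = 0.00935), -1.39 for ORC6 (adjusted p = 0.02) and -1.38 for FEN1 (adjusted p = 0.0107). FEN1 in T and POLA2 in P were called under every alternative run for these tests. The length offset, thinning, all gene classes, the threshold of 0.1 and fits on the compared libraries alone were not run for them. Of 13 alternatives, the call in T was kept in 12 for MCM6, 7 for MCM10, 4 for POLA2, 3 for POLE2 and 3 for CDC6. In P the call was kept in 12 for FEN1, 12 for POLE2 and 7 for ORC6. No group held enough libraries for a test of single outlying samples.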

How the results depend on the processing

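None of the 130 called gene results changed direction: of their 1781 repeats over the alternatives, 1392 stayed past the threshold and 389 did not. These results were picked for being called, and the alternatives reuse the same libraries, so a change of direction was unlikely from the start. The share of all genes called in each repeat is not given here. The counts of called members moved by over 1.5 times in 132 of 461 repeats, as follows. The reported counts (H, NPP, HPP, HPP against H) are 1, 1, 18 and 4 for MCF10A T, 1, 1, 26 and 5 for MCF10A P, 2, 0, 18 and 5 for MDA-MB-231 T and 7, 2, 19 and 6 for MDA-MB-231 P. With DESeq2, counts in MCF10A were 9 (H) and 2 (NPP) in T, 13 and 5 in P, and 8 and 10 for HPP against H in T and P; MDA-MB-231 had 6 and 2 in T, 14 in hypoxic P, and 10 for normoxic P against T, and 8 members differed between lines in HPP P. RLE scaling gave 0 in MCF10A H T and NPP T and 3 for the line difference in HPP T. A threshold of 0.1 gave 3 and 2 in T and 6 and 2 in P of MCF10A (H and NPP), and 4 and 2 in T and 11 in hypoxic P of MDA-MB-231. All gene classes gave 0 in MCF10A H T and 1 in MDA-MB-231 NPP P. Without the count filter, MCF10A H T, NPP T and NPP P gave 0, HPP against H in P gave 3, and the line difference in HPP T 3. Fits on the compared libraries alone, with fewer residual degrees of freedom, gave in MCF10A 6 in H T, 14 in HPP P and 0 in NPP T, H P, NPP P and HPP against H in T and P, and in MDA-MB-231 0 in H T, H P and NPP P and 2 for HPP against H in T. The length offset gave in MCF10A 11, 2 and 29 in T (H, NPP, HPP), 11 in H P, 3 in NPP P and 8 and 8 for HPP against H, and in MDA-MB-231 4, 1 and 14 in H T, NPP T and H P.

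Whether replicate numbers pair the libraries differed between sets, and the design does not state it. With the replicate block, counts were 0 and 2 in MCF10A H T and H P, and 4, 11 and 7 in MDA-MB-231 H T, H P and normoxic P against T. With the replicate block within each fraction they were in MCF10A 4, 2 and 30 in T (H, NPP, HPP), 11 and 2 in P (H, NPP), and 8 and 11 for HPP against H, in MDA-MB-231 1, 11 and 7 in NPP T, H P and normoxic P against T, and 8 for the line difference in HPP P. A culture block left the Te counts at 0.

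With 1 library left out, the arm's other library was assumed to vary like the other groups. Ranges were, in MCF10A, 0 to 0, 0 to 2, 8 to 20 and 1 to 3 in T (H, NPP, HPP, HPP against H) and 0 to 1, 0 to 1, 12 to 26 and 1 to 2 in P; in MDA-MB-231, 0 to 0, 0 to 0, 7 to 15 and 0 to 5 in T and 1 to 2, 0 to 2, 9 to 15 and 2 to 3 in P. They were 0 to 4 for normoxic P against T in MDA-MB-231, 1 to 3 and 2 to 4 for the line difference in HPP T and P, and 0 to 4 for that in NPP T. All other counts of 0 remained 0. Depth was 18340916 counts or more per library, and thinning to that total gave 15 to 25 calls for HPP.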
